A study of Mus musculus with 16 samples.

Results

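Neutrophil and acute inflammation genes were followed across mammary glands of mice that differed in housing and age. The set held 10 genes, S100a8, S100a9, Csf3r, Il1b, Il1a, Il1rn, Tnf, Il6, Ptgs2 and Saa3, out of 18193 genes measured. They were found as the probe sets (groups of short oligonucleotides that report on a transcript) with a single listed gene symbol equal to a member, which gave 13 of 45101 probe sets. All 10 genes were measured, and none was removed by a filter on dim signals. The list was put together by function and with earlier results of these arrays known, so levels and differences below describe these genes and support nothing further.

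S100a8 and S100a9 encode the partners of calprotectin, a calcium-binding protein that fills the cytosol of neutrophils and is also made by activated macrophages and by stressed keratinocytes. Interleukin 1 and tumour necrosis factor, released by macrophages and other cells at a site of injury, switch on NF-kappaB in their neighbours, and the outcome includes Il6, Ptgs2, serum amyloid A and the signals that call neutrophils out of the blood. In mammary tumours the same products come from tumour cells, fibroblasts and immune cells, so a level in whole tissue does not name the cell that made it.

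The mice were FVB/N females homozygous for the SV40 large T antigen, driven by the C3(1) fragment of the rat prostatic steroid binding protein promoter. The transgene produces tumours of the mammary gland. Every group carried it, so no group stands for a normal gland. All mice were weaned at 21 days, kept alone (isolated) or with other females (grouped), and killed in estrus, 6 hours into the dark phase, at 15 or 20 weeks of age. Thoracic mammary gland RNA was hybridised to 16 Affymetrix arrays, 4 for each combination of housing and age. Replicates are numbered in the labels without a statement that each was its own mouse, and a p-value here weighs a difference against the spread of these arrays alone. Levels are log2 values, on which a difference of 1 is a doubling. In whole glands, fewer cells of a type and less RNA per cell cannot be told apart.

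Array medians lay between 8.09 and 8.11 at 15 weeks and between 8.31 and 8.34 at 20 weeks, and the median gene was higher by 0.23 at 20 weeks in grouped and by 0.24 in isolated mice. No label says whether both ages were run together, so age and any difference in processing cannot be told apart. Some arrays stood apart in the RNA of other cells. Replicate 1 of the grouped mice at 15 weeks had a mean over 9 B cell markers of 8.89, against 7.72 to 7.75 in the rest of its group, and replicate 3 of the isolated mice at 20 weeks had 8.22. The latter array also had the highest level of Krt10, a keratin of the outer skin layers (9.45 against 7.81 to 8.05 in its group). It was highest of its group for 6 of 15 keratinocyte markers, not including Krt5, Krt6a and Krt14. Its mean over the 15 was 9.02 against 8.63 to 8.74. Replicate 4 of the grouped mice at 15 weeks had the highest Krt6a of that group, 11.19 against 8.60 to 9.64. It was highest for 9 of the 15, with a mean of 8.44 against 7.88 to 8.08. In replicate 1 of that group 2 of the 15 were highest, and Krt10 was lowest (7.44 against 7.76 to 7.92). Differences of S100a8 and S100a9 that rest on these arrays are given with and without them.

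The promoters of 5 members are shown because these genes had the largest age differences of the set in isolated mice. Each is the 250 bases before the RefSeq start on GRCm38.p6, written 5′ to 3′ along the gene, with motif matches in capitals. S100a8 lies at chr3:90668821-90669070 on the plus strand and its neighbour S100a9 at chr3:90695722-90695971 on the minus strand, the genes being 22595 bases apart. Saa3 is at chr7:46715677-46715926 (minus strand), Ptgs2 at chr1:150099781-150100030 (plus strand) and Il6 at chr5:30012864-30013113 (plus strand). The Saa3 window lies inside the listed span of its gene (chr7:46711998-46719615), so it precedes a transcript start within the gene and not its outer end.
S100a8: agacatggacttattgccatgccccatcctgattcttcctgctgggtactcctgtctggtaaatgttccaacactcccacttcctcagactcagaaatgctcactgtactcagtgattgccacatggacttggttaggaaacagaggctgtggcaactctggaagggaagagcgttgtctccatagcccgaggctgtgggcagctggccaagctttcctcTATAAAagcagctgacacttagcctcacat
S100a9: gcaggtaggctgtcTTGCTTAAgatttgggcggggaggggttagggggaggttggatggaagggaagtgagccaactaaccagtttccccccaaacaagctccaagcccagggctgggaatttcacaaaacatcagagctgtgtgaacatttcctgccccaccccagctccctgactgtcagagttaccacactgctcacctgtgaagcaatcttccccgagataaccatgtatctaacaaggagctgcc
Saa3: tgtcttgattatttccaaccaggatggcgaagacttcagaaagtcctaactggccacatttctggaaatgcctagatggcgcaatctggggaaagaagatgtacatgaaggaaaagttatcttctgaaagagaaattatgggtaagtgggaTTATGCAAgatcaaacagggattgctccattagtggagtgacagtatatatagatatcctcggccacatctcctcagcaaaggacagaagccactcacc
Ptgs2: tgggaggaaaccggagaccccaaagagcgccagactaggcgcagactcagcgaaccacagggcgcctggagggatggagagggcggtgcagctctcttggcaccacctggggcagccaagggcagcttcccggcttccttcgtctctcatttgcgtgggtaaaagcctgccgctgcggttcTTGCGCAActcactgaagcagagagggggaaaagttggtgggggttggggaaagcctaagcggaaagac
Il6: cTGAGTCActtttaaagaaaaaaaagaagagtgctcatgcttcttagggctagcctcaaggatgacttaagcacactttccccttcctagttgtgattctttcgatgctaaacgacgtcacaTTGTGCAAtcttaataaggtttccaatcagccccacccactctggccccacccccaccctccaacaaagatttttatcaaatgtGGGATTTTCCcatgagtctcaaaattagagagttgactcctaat

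The motifs searched, on both strands, were the TATA box (TATAAA), C/EBP (TTGCNNAA), AP-1 (TGANTCA) and the NF-kappaB consensus, and no matches overlapped. The S100a8 window held a TATA box that began 30 bases before the start, and the S100a9 window a C/EBP match 236 bases before it. C/EBP matches also stood 99 bases before the start of Saa3 and 69 before that of Ptgs2. Il6 had an NF-kappaB match at 44, a C/EBP match at 128 and an AP-1 match at 249 bases. Among 32851 promoter windows of the same length, 12.4% held the TATA box, 9.6% the C/EBP motif, 7.3% the NF-kappaB consensus and 6.7% the AP-1 motif. A match is a description of the letters and not a site shown to be bound. All 10 members were matched in the promoter table.

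Housing was the comparison the study was built for. At 15 weeks the calprotectin pair lay lower in isolated than in grouped mice, by 1.70 for S100a8 and 0.95 for S100a9 on the log2 scale, and at 20 weeks it lay higher, by 0.60 and 0.47. None of these differences passed the test, and the SD of S100a8 was 1.65 among grouped mice at 15 weeks and 0.94 among isolated mice at 20 weeks. The interleukin 1 genes, Il6, Saa3 and Csf3r differed by less than 0.5 at either age. None of the 10 genes passed an adjusted p of 0.05 (limma, Benjamini-Hochberg over all genes) at 15 weeks, where 0.044% of all genes did, and none at 20 weeks, where 0.011% did. At an unadjusted p under 0.05 the count was 1 member at 15 weeks, S100a8, and 1 at 20 weeks, Il1b. Of all 18193 genes, 1764 were under it at 15 weeks and 1545 at 20 weeks.

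**Figure D1:**
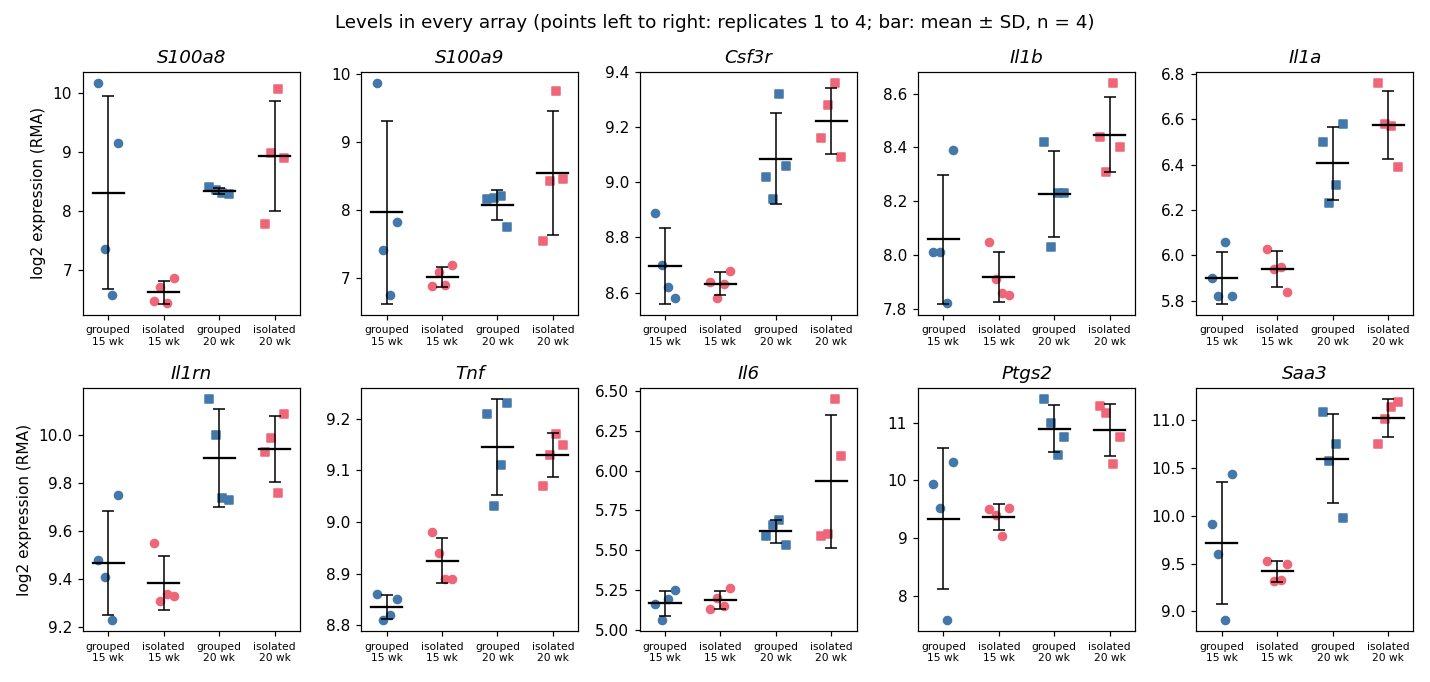
Log2 expression of the 10 genes in each of the 16 arrays, by housing and age. Points are arrays and bars the mean ± SD (n = 4). S100a8 spans 6.57 to 10.18 in grouped mice at 15 weeks but only 6.44 to 6.85 in isolated mice of that age. Axes differ between panels.

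S100a8 read 10.18, 7.35, 6.57 and 9.15 in replicates 1 to 4 of the grouped mice at 15 weeks, and 6.47, 6.70, 6.44 and 6.85 in the isolated mice. All 4 isolated arrays were low and close together, while the grouped arrays ran from the isolated level to the highest of the study, so the groups overlapped. The isolated arrays stood at percentiles 20.1 to 25.9 of the probe sets, close to the lower quartile (6.77 to 6.79). Their small spread is that of a dim signal. The means were 8.31 ± 1.65 and 6.62 ± 0.19 (SD, n = 4), and the difference of -1.70 (SE 0.63) had an adjusted p of 0.450 in limma and an unadjusted p of 0.0217. Without replicate 1 of the grouped mice, the array rich in B cell RNA, the difference was -1.07. It was -1.42 without replicate 4, the array rich in Krt6a, and -2.28 without replicate 3.

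At 20 weeks S100a8 read 8.40, 8.35, 8.30 and 8.29 in grouped mice and 7.77, 8.98, 10.08 and 8.91 in isolated mice. Here the grouped arrays were the tight ones, with an SD of 0.05, and the isolated arrays lay on both sides of them. The means were 8.33 ± 0.05 and 8.93 ± 0.94 (SD, n = 4), a difference of 0.60 (SE 0.38, limma adjusted p = 0.667). Without replicate 3 of the isolated mice the difference was 0.22, and without replicate 1 it was 0.99.

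S100a9, the partner chain, ranked the arrays in much the same way. In the grouped mice at 15 weeks it read 9.87, 7.41, 6.75 and 7.82, and in the isolated mice 6.88, 7.08, 6.90 and 7.19. Replicate 1 of the grouped mice again stood well above the rest, and replicate 3 lay below every isolated array. The difference was -0.95 (SE 0.51, limma adjusted p = 0.556). It was -0.31 without replicate 1 and -1.0 without replicate 4. At 20 weeks it read 8.16, 8.17, 8.20 and 7.74 in grouped and 7.54, 8.43, 9.75 and 8.45 in isolated mice. The groups overlapped and differed by 0.47 (SE 0.38, limma adjusted p = 0.720). That value was 0.07 without replicate 3 of the isolated mice and 0.81 without replicate 1.

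Csf3r, the receptor for the cytokine that drives neutrophil production, was far steadier than the S100 pair. Its levels were 8.89, 8.70, 8.62 and 8.58 in grouped mice at 15 weeks, 8.64, 8.58, 8.63 and 8.68 in isolated mice at 15 weeks, 9.02, 8.94, 9.32 and 9.06 in grouped mice at 20 weeks, and 9.16, 9.28, 9.36 and 9.09 in isolated mice at 20 weeks. Its highest array in each of the groups with a spread-out S100a8 was the array highest for S100a8, yet the excess was small. Housing differences were -0.06 (SE 0.07) at 15 weeks and 0.14 (SE 0.09) at 20 weeks, with limma adjusted p of 0.764 and 0.680.

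**Figure D2:**
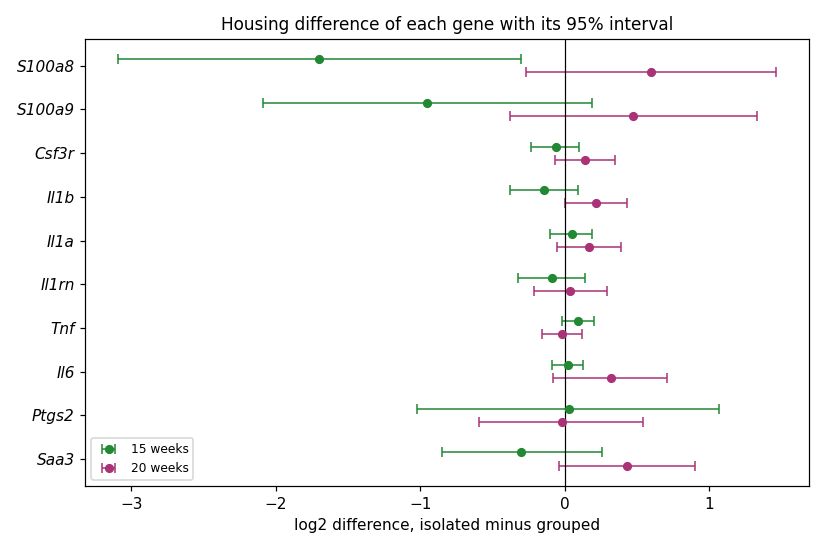
Housing difference (isolated minus grouped, log2) of each gene at 15 and 20 weeks, with its 95% confidence interval from limma, not adjusted for the number of genes. S100a8 runs from -3.09 to -0.30 at 15 weeks and from -0.27 to 1.46 at 20 weeks, and most other genes lie close to 0.

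Among the interleukin 1 ligands, Il1b, secreted by macrophages and neutrophils after cleavage by caspase 1, read 8.01, 8.01, 7.82 and 8.39 in grouped and 8.05, 7.91, 7.86 and 7.85 in isolated mice at 15 weeks. Replicate 4 of the grouped mice was the high one and the rest overlapped. The difference was -0.14 (SE 0.11, limma adjusted p = 0.648), and -0.03 without that array. At 20 weeks the levels were 8.42, 8.03, 8.23 and 8.23 in grouped and 8.44, 8.31, 8.64 and 8.40 in isolated mice. Isolated arrays were mostly the higher ones, by 0.22 on average (SE 0.10), with an unadjusted p of 0.0460 and an adjusted p of 0.583 in limma.

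Il1a, the other ligand of the same receptor and a neighbour of Il1b on chromosome 2, was among the dimmest of the set. It read 5.90, 5.82, 6.06 and 5.82 in grouped and 6.03, 5.94, 5.95 and 5.84 in isolated mice at 15 weeks, all below the lower quartile of the arrays (6.76 to 6.79). Grouped and isolated arrays overlapped there and again at 20 weeks, where Il1a read 6.50, 6.23, 6.31 and 6.58 against 6.76, 6.58, 6.57 and 6.39. The housing differences were 0.05 (SE 0.06) and 0.17 (SE 0.10).

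Il1rn, the natural antagonist that occupies the interleukin 1 receptor without signalling, was measured by 3 probe sets. The brightest, used in the tests, read 9.48, 9.41, 9.23 and 9.75 in grouped and 9.55, 9.31, 9.34 and 9.33 in isolated mice at 15 weeks. At 20 weeks the grouped arrays ran from 9.73 to 10.15 and the isolated arrays read 9.93, 9.99, 9.76 and 10.09. Housing groups overlapped at both ages, with differences of -0.09 (SE 0.10) and 0.04 (SE 0.11), and the probe sets did not share a sign at 15 weeks.

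Tnf, the cytokine that acts beside interleukin 1 on NF-kappaB, was among the steadiest genes. Its levels at 15 weeks were 8.86, 8.81, 8.82 and 8.85 in grouped and 8.98, 8.94, 8.89 and 8.89 in isolated mice. All isolated arrays were above all grouped ones, a pattern that 2.31% of genes showed in this direction, but the step was only 0.09 (SE 0.05, limma adjusted p = 0.575). At 20 weeks Tnf read 9.21, 9.03, 9.11 and 9.23 against 9.07, 9.13, 9.17 and 9.15, and the groups overlapped (difference -0.02, SE 0.06).

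Il6, which carries the inflammatory signal to the liver and to lymphocytes, lay near the floor of the arrays. At 15 weeks it read 5.16, 5.06, 5.19 and 5.25 in grouped and 5.13, 5.20, 5.15 and 5.26 in isolated mice, and the housing difference was 0.02 (SE 0.05). At 20 weeks the grouped arrays read 5.59, 5.66, 5.69 and 5.53. The isolated arrays read 5.59, 5.60, 6.45 and 6.09, so that replicates 3 and 4 were above every grouped array and the others were level with them. Across all arrays Il6 stood between the percentiles 4.9 and 16.6 of the probe sets. The difference at 20 weeks was 0.32 (SE 0.17, limma adjusted p = 0.632), and 0.14 without replicate 3.

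Ptgs2, the inducible cyclooxygenase that opens prostaglandin synthesis, did not separate by housing at either age. In grouped mice at 15 weeks it read 9.94, 9.52, 7.58 and 10.32, and in isolated mice 9.51, 9.40, 9.03 and 9.52. Replicate 3 of the grouped mice, which also had the highest mean over 10 adipocyte markers (12.76 against 12.16 to 12.46), was far below all other arrays. The difference was 0.03 (SE 0.47), and -0.56 without that array. On the second Ptgs2 probe set the gap was smaller, with replicate 3 at 7.96 beside 8.64, 8.31 and 8.96 in its group. That probe set gave a difference of 0.09 (SE 0.18). At 20 weeks Ptgs2 read 11.41, 10.99, 10.45 and 10.75 in grouped and 11.29, 11.17, 10.29 and 10.75 in isolated mice, a difference of -0.02 (SE 0.25).

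Saa3, an acute-phase serum amyloid that mice make in macrophages and epithelium as well as liver, had the same order of housing means as the S100 pair. It read 9.91, 9.60, 8.91 and 10.44 in grouped and 9.53, 9.32, 9.33 and 9.50 in isolated mice at 15 weeks, with grouped arrays on both sides of the isolated ones. At 20 weeks the readings were 11.09, 10.57, 10.75 and 9.98 against 10.75, 11.01, 11.14 and 11.19, and all but the first isolated array were above at least 3 of the 4 grouped ones. The differences were -0.30 (SE 0.25, limma adjusted p = 0.682) and 0.43 (SE 0.21, limma adjusted p = 0.605). Without replicate 4 of the grouped mice of that age the first was -0.05 and the second 0.22.

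Whether the housing difference itself changed with age was tested as an interaction on all 16 arrays. For S100a8 the difference at 20 weeks exceeded that at 15 weeks by 2.30 (SE 0.83), with an unadjusted p of 0.0142 and an adjusted p of 0.281 in limma. Il1b had an interaction of 0.36 (SE 0.15, unadjusted p = 0.0297, adjusted p = 0.338), Saa3 of 0.72 (SE 0.36, adjusted p = 0.413) and S100a9 of 1.42 (SE 0.72, adjusted p = 0.419). Without replicate 1 of the grouped mice at 15 weeks, S100a8 gave 1.67 and S100a9 0.79, and without replicate 4 of that group 2.02 and 1.47. Without replicate 3 of the isolated mice at 20 weeks they gave 1.91 and 1.02. The Saa3 interaction was 0.48 without replicate 4 of the grouped mice at 15 weeks. Tnf and Ptgs2 had the opposite sign, at -0.11 and -0.05. None of the 10 members passed, beside 0.011% of all genes. At an unadjusted p under 0.05 there were 2 members, S100a8 and Il1b, beside 2313 of all 18193 genes. The interaction of 8 members was positive, beside 47.7% of all genes, and the median over the 10 was 0.25 beside -0.01 over all genes.

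Age was compared within each housing. In isolated mice all 10 members were called higher at 20 than at 15 weeks, from 0.21 for Tnf to 2.32 for S100a8. In grouped mice all 10 differences were positive, beside 81.1% of all genes. Of the 10, 7 were called, led by Ptgs2 with 1.56, while S100a8, S100a9 and Il1b were not. The share of all genes called higher was 57.3% in isolated and 56% in grouped mice, so being called higher with age was the common state of a gene on these arrays. Calls in the other direction covered 9.33% and 6.41% of all genes and no member. The comparisons do not share arrays. Every one of the 10 in isolated mice, and 5 of the 10 in grouped mice, had all 20-week arrays above all 15-week arrays, beside 52.7% and 49.7% of all genes.

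**Figure D3:**
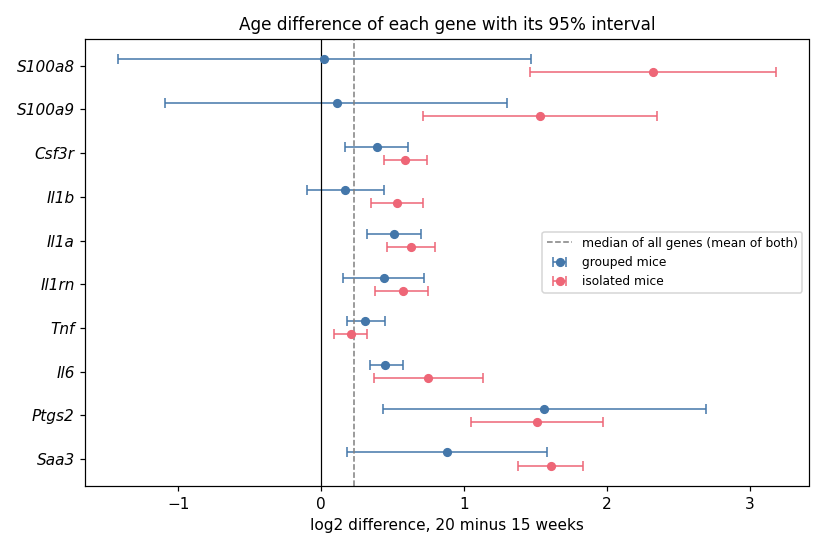
Age difference (20 minus 15 weeks, log2) of each gene in grouped and isolated mice, with its 95% confidence interval from limma, not adjusted for the number of genes. The dashed line marks the median of all genes, the mean of 0.23 and 0.24. Ptgs2 lies well to its right in both, Tnf beside it, and S100a8 to its right only in isolated mice.

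Ptgs2 rose by 1.56 (SE 0.50, limma adjusted p = 0.0218) in grouped and by 1.51 (SE 0.20, adjusted p = 0.000176) in isolated mice, a fold of 2.95 and 2.85. Its second probe set gave 1.35 and 1.39. The grouped value rested in part on the low replicate 3 at 15 weeks, without which it was 0.97, and the adjusted p was 0.0581 without replicate 1 at 20 weeks. Saa3 rose by 1.61 in isolated mice (SE 0.10, limma adjusted p = 6.95e-06), where no 15-week array exceeded 9.53 and no 20-week array was below 10.75. In grouped mice its rise was 0.88 (SE 0.31, limma adjusted p = 0.0325), with replicate 4 of the 20-week arrays (9.98) below replicate 4 of the 15-week arrays (10.44). That call was lost without any one of 5 arrays, replicates 2 and 3 at 15 weeks and 1, 2 and 3 at 20 weeks, with limma adjusted p between 0.0616 and 0.0878.

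S100a8 rose by 2.32 (SE 0.38, limma adjusted p = 0.000553) and S100a9 by 1.53 (SE 0.37, adjusted p = 0.00465) in isolated mice. The S100a8 rise began from dim 15-week levels, close to the lower quartile of the arrays (6.77 to 6.79). Without replicate 3 of the isolated mice at 20 weeks the rises were 1.94 and 1.13 (limma adjusted p = 0.000364 and 0.00162). The same genes gave 0.02 (SE 0.65, limma adjusted p = 0.975) and 0.11 (SE 0.53, adjusted p = 0.870) in grouped mice, where the 15-week arrays spanned the 20-week ones. Without replicate 1 of the grouped mice at 15 weeks, S100a9 was higher by 0.74 (limma adjusted p = 0.0191), and S100a8 gave 0.65 and was not called. Without replicate 4 of that group S100a8 gave 0.30 and S100a9 0.06. The test of the difference between these age effects is the interaction given above, which did not pass.

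For the interleukin 1 genes the age difference was 0.53 (SE 0.08, limma adjusted p = 0.000289) in isolated and 0.17 (SE 0.12, adjusted p = 0.243) in grouped mice for Il1b. Without replicate 4 of the grouped mice at 15 weeks the Il1b value was 0.28, with an adjusted p of 0.0324. Il1a gave 0.63 and 0.51, and Il1rn 0.57 and 0.44, in isolated and grouped mice, all called. The dimmer probe sets of Il1rn gave 0.42 and 1.13 in isolated mice and 0.48 and 1.02 in grouped mice.

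Il6 was higher by 0.75 (SE 0.17) in isolated and by 0.45 (SE 0.05) in grouped mice, and Csf3r by 0.59 (SE 0.07) and 0.39 (SE 0.10), all with limma adjusted p of 0.00664 or less. Tnf was higher by 0.21 (SE 0.05) and 0.31 (SE 0.06). The Tnf steps were close to the shift of the median gene. Taken relative to that median, Tnf stood at -0.03 in isolated and 0.08 in grouped mice, Csf3r at 0.36 and 0.16, Il6 at 0.51 and 0.22, and Ptgs2 at 1.28 and 1.33.

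When the arrays of both ages were forced onto a single distribution (quantile normalization), 27.3% of genes were called higher and 23.4% lower in isolated mice, and 20% and 18.4% in grouped mice. The share of calls that were higher fell from 86.0% to 53.8% and from 89.7% to 52.2%. Of the members, 9 were still called higher in isolated mice, with S100a8 at 2.12, S100a9 at 1.36, Saa3 at 1.33 and Ptgs2 at 1.24, while Tnf turned to -0.02. In grouped mice only Il6 (0.25) and Il1a (0.27) were called, and Ptgs2 (1.33, limma adjusted p = 0.0620) and Saa3 (0.65, adjusted p = 0.122) were not. S100a8, S100a9 and Il1b had negative values there, of -0.18, -0.10 and -0.04.

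Other neutrophil genes were read array by array beside the S100 pair. Of 34 granule and surface genes in the list, 27 were measured, and Ly6g, the surface marker that defines mouse neutrophils, was not matched. None of the 27 passed for housing at either age, with 17 lower at 15 weeks and 17 higher at 20 weeks (medians -0.04 and 0.09). Of all genes, 46% were higher at 15 weeks and 46.7% at 20 weeks. Mpo, the peroxidase of the primary granules, read 7.80 to 8.10 in the 15-week arrays and 8.32 to 8.55 in the 20-week arrays. Elane, the elastase of the same granules, ran the other way, at 10.05 to 10.26 and then 9.67 to 9.81.

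Over the whole list, 7 of the 27 genes had their group's highest level in replicate 1 of the grouped mice at 15 weeks and 12 in replicate 4, the arrays with the most S100a8 in that group. In replicate 3 of the isolated mice at 20 weeks, the array with the most S100a8 there, the count was 9, and in replicate 4 of the same group it was 11. The list mean was 8.73 and 8.70 in the former arrays, beside 8.48 and 8.56 in the rest of the group, and 9.00 in the third array beside 8.79 to 9.03.

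Single genes of the list differed in these arrays, and those named here were picked after their levels were seen. Ngp, a protein of the later granules, was highest in replicate 1 of the grouped mice at 15 weeks (9.35 against 8.27 to 8.67 in its group), the array with the most S100a8. In replicate 3 of the isolated mice at 20 weeks it read 8.87 in a group that ran from 8.76 to 8.93. Camp, the cathelicidin, showed the same: 8.78 against 8.28 to 8.32 in the first array, and 8.95 within 8.60 to 8.96 in the second. Ltf, another granule gene of the list, was lowest in the first array, at 10.52 against 10.77 to 10.95. In the second array it read 10.74 in a group that ran from 9.98 to 12.02. Fpr2, a formyl peptide receptor, was high in that second array, at 9.42 against 8.49 to 8.82 in its group, as were Trem1 (9.04 against 8.79 to 8.82) and Chil3 (6.45 against 6.07 to 6.15). Replicate 4 of the grouped mice at 15 weeks, the other array with high S100a8 (9.15), had the lowest Ngp of its group but the highest Lcn2 (12.11 against 11.04 to 11.51) and Slpi (12.10 against 11.03 to 11.57), secreted proteins that epithelium also makes. In replicate 3 of the isolated mice at 20 weeks Lcn2 was the lowest of its group, at 11.82 against 12.48 to 12.81.

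By age, 12 of the 27 were called higher and 2 lower in grouped mice, where 56% and 6.41% of all genes were, and 20 and 2 in isolated mice, where 57.3% and 9.33% were. The medians were 0.31 and 0.42, beside 0.23 and 0.24 over all genes. The 2 lower genes were Elane and Cd177, a surface glycoprotein of neutrophils, and Cd177 fell by 1.25 in both housings with limma adjusted p of 1.23e-05 and 1.34e-06. Mpo rose by 0.50 and 0.42, or by 0.27 and 0.18 beyond the median gene. Padi4, the enzyme that citrullinates histones in neutrophil traps, was higher in isolated mice at 20 weeks by 0.39 with an adjusted p of 0.429.

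**Figure D4:**
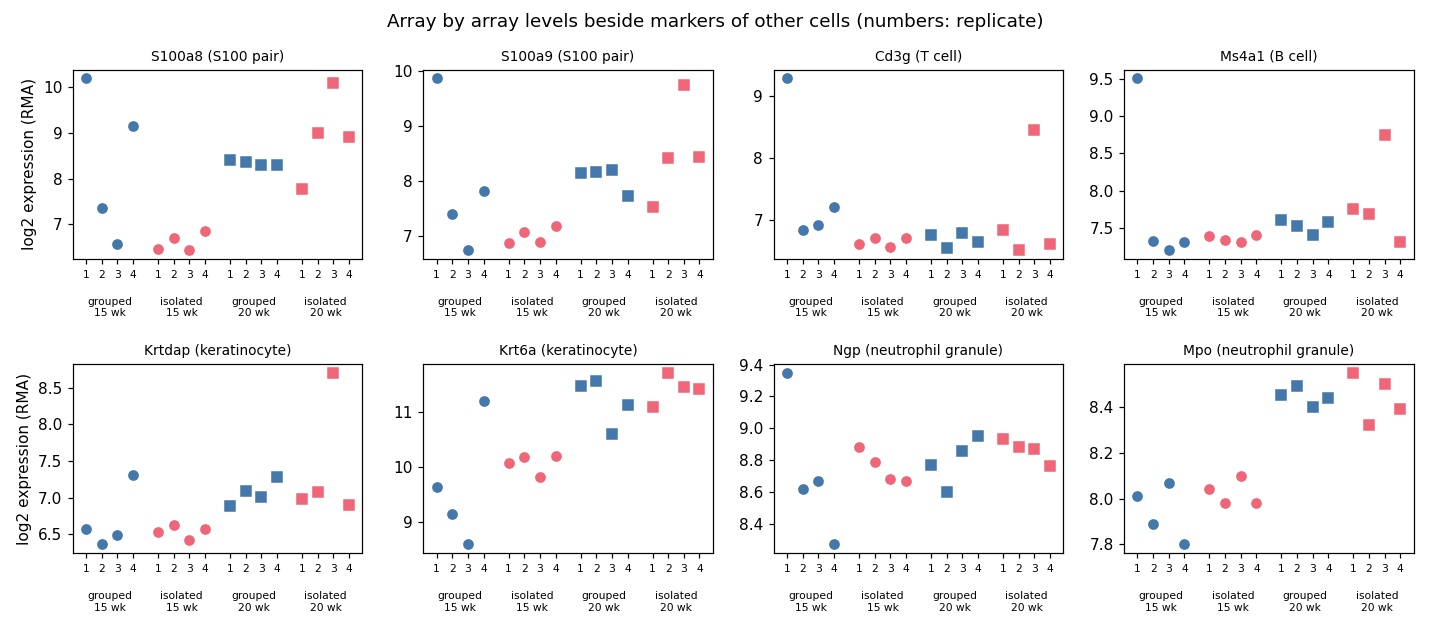
Log2 expression in each array (numbers are replicates) of S100a8 and S100a9 beside markers of T cells (Cd3g), B cells (Ms4a1), keratinocytes (Krtdap, Krt6a) and neutrophil granules (Ngp, Mpo). Replicate 1 of the grouped mice at 15 weeks is high for the S100 pair, Cd3g, Ms4a1 and Ngp, and replicate 3 of the isolated mice at 20 weeks is high for the S100 pair, Cd3g, Ms4a1 and Krtdap.

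Some markers of other cells moved with the S100 pair in the arrays named at the start. Cd3g, a chain of the T cell receptor complex, read 9.29 in replicate 1 of the grouped mice at 15 weeks against 6.84 to 7.21 in the others, and 8.45 in replicate 3 of the isolated mice at 20 weeks against 6.52 to 6.85. Ms4a1, the B cell antigen CD20, read 9.51 and 8.75 in those arrays. The mean over 9 T cell markers was 8.55 and 8.36 there, and 7.74 to 7.92 in all other arrays. Krtdap, a protein of differentiating keratinocytes, was at 8.71 in the isolated array and at 7.31 in replicate 4 of the grouped mice at 15 weeks, against 6.36 to 6.57 in the rest of that group. The part of these cells in the S100 levels was not tested.

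Markers of several other cell types were set beside the housing differences. All 14 macrophage markers measured were lower in isolated mice at 15 weeks (median -0.37) and 13 of 14 higher at 20 weeks (median 0.54), none past an adjusted p of 0.05. The array mean over these markers was 10.88 to 11.15 in grouped and 10.45 to 10.83 in isolated mice at 15 weeks, and 10.33 to 11.47 and 10.79 to 11.52 at 20 weeks. At 20 weeks all 10 adipocyte markers (median -0.77), all 11 luminal epithelial markers (-0.13) and all 10 endothelial markers (-0.31) were lower in isolated mice, again with none past the threshold. Of all genes, 46% were higher in isolated mice at 15 weeks and 46.7% at 20 weeks. By age, 10 of the 14 macrophage markers were called higher in isolated and none in grouped mice, beside 57.3% and 56% of all genes. Of 9 mast cell markers, 3 were called lower in isolated mice at 15 weeks and none at 20 weeks, beside 0.022% and 0.011% of all genes. Of 15 keratinocyte markers, 10 were called higher with age in each housing, beside 56% and 57.3% of all genes, and 1 was called lower in isolated mice. Adipocyte markers were called lower with age in 9 of 10 in grouped and all 10 in isolated mice, beside 6.41% and 9.33% of all genes. The part of these cells in the housing and age differences was not tested. The 3′ minus 5′ difference of Gapdh, a sign of RNA quality, was -0.06 ± 0.03, -0.01 ± 0.02, -0.02 ± 0.03 and -0.02 ± 0.03 (SD, n = 4) in grouped and isolated mice at 15 weeks and grouped and isolated mice at 20 weeks.

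Across the 16 arrays, with the mean of each age subtracted, the genes most like each member were found by Pearson's r, as a description over arrays that share RNA from the same mixed tissue. S100a8 was most like its partner S100a9 (r = 0.93, Spearman's rho = 0.94), and r was 0.95 without the arrays farthest from the median, replicates 1 and 4 of the grouped mice at 15 weeks. Next came Stk17b and Il7r (both 0.93). S100a9 was most like Ltb and Acap1 (both 0.95), the first of which fell to 0.61 without replicate 1 of the grouped mice at 15 weeks and replicate 3 of the isolated mice at 20 weeks.

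Saa3 was most like Bin3 (r = 0.94) and Clec4e (0.93), a lectin of activated macrophages and neutrophils, and the latter kept r = 0.93 without the arrays farthest from the median. Ptgs2 was most like Anln, Cep55 (both genes of cell division) and Cldn7, a tight junction protein, with r of 0.97, 0.95 and 0.95. Without replicates 3 and 4 of the grouped mice at 15 weeks these were 0.89, 0.87 and 0.89. Il6 was most like Tmprss11e (0.92), a serine protease, and r was 0.75 without replicates 3 and 4 of the isolated mice at 20 weeks. Among the members, S100a8 with Saa3 gave 0.68, Il1b with Saa3 0.76, Il1rn with Ptgs2 0.71 and S100a8 with Il1a -0.22. The closest gene was Rgs1 (0.89) for Il1b, Sprr2h (0.92) for Il1a, Plscr1 (0.86) for Il1rn, Klhl14 (0.84) for Tnf and Fchsd2 (0.89) for Csf3r.

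The pathways around the members are given as counts, to be read beside the 56% of all genes called higher and 6.41% lower with age in grouped mice and the 57.3% and 9.33% in isolated mice. Of 19 measured interleukin 1 genes none passed for housing, and 11 were called higher and 1 lower with age in grouped mice and 14 and 1 in isolated mice (medians 0.26 and 0.50). Myd88, the adaptor under the interleukin 1 receptor, was higher by 0.61 and 0.92 in grouped and isolated mice. Il1r2, the decoy receptor, gave -1.32 and -0.74. Casp1, which cleaves the Il1b precursor, gave a housing difference of -0.33 at 15 weeks and 0.44 at 20 weeks, an interaction of 0.77 with a limma adjusted p of 0.178.

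Of 22 genes of the Tnf and NF-kappaB list, 16 and 19 were called higher with age in grouped and isolated mice, and none lower (medians 0.38 and 0.46). Tnip1, a brake on NF-kappaB, was higher by 0.73 and 0.86, and Nfkbiz, a nuclear partner of NF-kappaB that Il6 needs, by 1.03 in isolated mice. In the list of 15 genes around Il6, 10 were called higher in each housing and 1 lower in isolated mice (medians 0.26 and 0.25). Socs3, the feedback inhibitor that Il6 signalling induces, rose by 1.47 and 1.66 (0.80 and 0.93 by another probe set), while the receptor Il6ra gave 0.12 and 0.06 and was not called.

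The acute phase list of 17 genes was mixed beside Saa3, with 5 higher and 3 lower in grouped and 6 higher and 4 lower in isolated mice (medians 0.18 and 0.07). Orm3, an orosomucoid, gave -0.92 and -1.06, and Saa1, the liver form of serum amyloid, 0.30 and 0.61, of which only the second was called. Of 18 prostaglandin genes beside Ptgs2, 5 were called higher and 4 lower in grouped mice and 10 and 4 in isolated mice (medians 0.03 and 0.24). Ptger3, a prostaglandin E receptor, gave -2.43, and Ptges, the synthase that acts after Ptgs2, -1.16 in isolated mice, and other probe sets gave smaller falls, such as -1.08 for Ptger3 and -0.61 for Ptges.

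Of 18 genes of neutrophil production and recruitment, 9 were called higher and 1 lower with age in grouped mice and 11 and 0 in isolated mice (medians 0.27 and 0.43). Cxcl5, a neutrophil-attracting chemokine, rose from 4.81 to 5.33 in grouped mice at 15 weeks to between 6.49 and 7.48 at 20 weeks, by 2.01, and by 2.44 in isolated mice. Its 15-week levels in both housings lay below the lower quartile of the arrays (6.76 to 6.79). Csf3, the ligand of Csf3r, gave 0.18 (limma adjusted p = 0.0194) and 0.09 (not called). For housing, Cxcl12, a chemokine that holds neutrophils in the marrow, was the one gene called in these pathway lists, at -0.64 at 15 weeks (limma adjusted p = 0.0348), but its other probe sets gave 0.22 and 0.06. The call was lost without any one of the isolated arrays or replicate 2 of the grouped mice (limma adjusted p between 0.102 and 0.222), under quantile normalization (0.101), with the probe set of largest variance (0.0531) and with all 16 arrays in a single fit (0.619).

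S100a4, another calcium-binding protein of the S100 family, made by fibroblasts and macrophages, read 10.12, 10.20, 10.44 and 9.83 in grouped and 10.92, 11.04, 11.48 and 10.88 in isolated mice at 20 weeks. The groups did not overlap, as for 2.21% of genes in this direction. The difference was 0.93 with a limma adjusted p of 0.259, and without replicate 4 of the isolated mice it was 1.00 with 0.0464. Leaving out that array also raised the calls over all genes, from 0 higher and 2 lower to 10 and 126. At 15 weeks its difference was -0.33, and the interaction was 1.26 (limma adjusted p = 0.127). The interaction passed without any one of 3 arrays, replicate 3 of the grouped mice at 15 weeks, replicate 3 of the grouped mice at 20 weeks or replicate 4 of the isolated mice at 20 weeks (adjusted p between 0.0261 and 0.0377). In that order, those fits called 9, 81 and 28 of all genes higher and 4, 5 and 111 lower. The main fit called 0 and 2. With 11 S100 genes beside the members measured, none passed for housing, and 4 were called higher and 3 lower with age in grouped mice and 6 and 2 in isolated mice.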

How the data were processed

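Mammary gland RNA of 16 samples was measured on Affymetrix arrays, and the authors deposited log2 values made with RMA in affy, per the submitters' processing notes. Versions are not given in the sources used here. Arrays carry no read depth, so their number limits the precision. The difference between any 2 arrays of a group had an SD over all probe sets of 0.115 or more (log2). Of 45101 probe sets, 34945 had a single listed symbol and were no Affymetrix control, 932 had several symbols and 9211 were not listed. Each of the 18193 genes was represented by its brightest probe set on average over all arrays, with no filter on dim signals. limma 3.58.1 in R 4.3.3, with a variance prior that follows intensity, was fitted to the 8 arrays of each comparison, and to all 16 for the interaction. Adjustment was Benjamini-Hochberg over all genes, with a threshold of 0.05, and the fits were tested on simulated data. The members and all gene lists were chosen with earlier results of these arrays known. Named genes are all members, up to 3 genes of smallest p per list and comparison, and a few genes of each list taken whatever their values. Genes used as cell markers in the text were picked from the marker lists after their levels were seen. Alternatives were quantile normalization over the arrays of a fit, a filter at the 40th percentile, the probe set of largest variance, every probe set, no intensity trend, a block on replicate number, fits on all 16 arrays and leaving out each array. Sequences and gene positions come from RefSeq tables on GRCm38.p6, and motif matches from a search with Python 3.11.15. Probe sets whose name ends in s_at, such as that of S100a8, may share probes between transcripts.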

Additional observations from a re-analysis of the deposited data

Results flagged for a closer look

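S100a9 in grouped mice at 20 weeks had 1 array far from the others. Replicate 4 read 7.74, while the others lay between 8.16 and 8.20, so that the gap to the nearest array took up a share of 0.91 of the group's range, above the 95% critical value of Dixon's test. S100a8 in the same array, at 8.29, was level with its group. Il1rn in isolated mice at 15 weeks was highest in replicate 1, at 9.55 against 9.31 to 9.34, a share of 0.88. These were the only ones of 40 combinations of gene and group past it, and chance flags about 1 in 20 groups.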

How the results depend on the processing

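The counts of members called were unchanged, at 0, 0, 7, 10 and 0 for housing at 15 and 20 weeks, age in grouped and isolated mice and the interaction, with the probe set of largest variance, every probe set, no intensity trend and the replicate number as a block. Same-numbered arrays did not all deviate together (correlations from -0.200 to 0.488 over the 4 comparisons of groups, against -0.635 to 0.354 for the others). Their mean correlation was 0.18, 0.16 and 0.16 for housing at 15 and 20 weeks and age in isolated mice. For the others it was -0.06, -0.06 and -0.05. For age in grouped mice the means were -0.012 and 0.005. The main fits do not pair the samples, and whether the numbers pair them was not settled. Under the block S100a4 at 20 weeks passed, at 0.93 with a limma adjusted p of 0.0340. Quantile normalization left 2 members called by age in grouped mice, and gave -0.18 for S100a8, -0.10 for S100a9 and -0.04 for Il1b there, -0.02 for Tnf by age in isolated mice and -0.004 for Il6 by housing at 15 weeks. The filter at the 40th percentile tested only 5 members, Csf3r, Il1rn, Tnf, Ptgs2 and Saa3, and all 5 were called by age in both housings. S100a8, S100a9, Il1b, Il1a and Il6 fell below the filter and were not tested under it. Leaving out each array gave 5 to 8 members by age in grouped mice and 10 in isolated mice. Differences that turned direction when an array was left out were those of Csf3r (-0.11 to 0.001), Il1rn (-0.17 to 0.01), Il6 (-0.01 to 0.05) and Ptgs2 (-0.56 to 0.35) by housing at 15 weeks, Il1rn (-0.02 to 0.12), Ptgs2 (-0.17 to 0.17) and Tnf (-0.06 to 0.01) by housing at 20 weeks, Ptgs2 in the interaction (-0.37 to 0.54), and S100a8 (-0.56 to 0.65) and S100a9 (-0.30 to 0.74) by age in grouped mice. None of these was called, apart from S100a9 at 0.74. Other probe sets gave the opposite sign for Il1rn by housing at 15 weeks (0.07) and in the interaction (-0.06), Ptgs2 by housing at 20 weeks (0.12) and in the interaction (0.04), and Cxcl12 at 15 weeks (0.22 and 0.06). The cause of these changes was not tested. In all, 712 member values under the alternatives kept their direction and side of the threshold, 35 reversed, 11 lost and 2 gained a call. Il6 and Il1a lay in the lowest part of the arrays, where signal stands least above background. S100a8 was dim in isolated mice at 15 weeks, at percentiles 20.1 to 25.9 of the probe sets. Of the list genes named, Saa1, Chil3, Cxcl5 at 15 weeks and Cd177 at 20 weeks also lay below the lower quartile of the arrays. Other named genes lay below it in some arrays only. Among these were Krtdap (6.42 to 6.62) and Cd3g (6.57 to 6.72) in isolated mice at 15 weeks. Cxcl5 did so in replicates 3 and 4 of the grouped mice at 20 weeks (6.49 and 6.77).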
